A study of Mus musculus with 16 samples.

Results

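The core circadian clock loop was followed as 10 genes: the activators Arntl (which encodes BMAL1), Clock and Npas2, the repressors Per1, Per2, Per3, Cry1 and Cry2, and the nuclear receptor genes Nr1d1 and Nr1d2 (REV-ERB alpha and beta). They were chosen by symbol from the 57010 gene models of the deposited count table. Each matched 1 gene model, and all 10 passed the filter on low counts, which kept 14066 genes. RNA was measured by sequencing in 16 libraries of cardiomyocytes isolated from the hearts of C57BL/6 mice, 4 libraries in each of 4 groups.

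The PRODH TAC group received AAV9-PRODH, an adeno-associated virus meant to raise proline dehydrogenase, the mitochondrial enzyme that starts proline breakdown, and then transverse aortic constriction (TAC), which loads the left ventricle with pressure. The vector TAC group received AAV9-Vector and TAC, the PRODH sham group AAV9-PRODH and a sham operation, and the vector sham group AAV9-Vector and a sham operation. All 4 groups are labelled wild type in genotype and all carry a virus, so no group without a virus is described here. Surgery followed 3 weeks after the injection, and cells were taken 4 weeks after surgery. The series describes the overexpression as cardiac-specific, but the sources used here give neither the promoter that drives it, nor the age and sex of the mice, nor the time of day of collection. Whether each library came from its own animal is not stated, so the spread behind the p-values may be technical.

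In a mammalian cell, BMAL1 paired with CLOCK or NPAS2 binds E-box elements and switches on the Per, Cry and Nr1d genes. PER and CRY proteins return to the nucleus and repress that pair, while REV-ERB proteins compete with ROR activators at their shared response element and repress Arntl, Npas2, Clock and Cry1. Transcripts of the loop cycle through each day, and in heart muscle the clock is known for timing fuel metabolism and ion channel expression. With 1 collection per library and no stated hour, a change in a gene's overall level, a change in the phase of its cycle and a difference between groups in the hour of collection cannot be told apart in these data. This holds for every difference in a clock gene given below. The hour of collection is equally unknown for the target genes read beside the loop, so it may also enter their differences, which was not tested.

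Promoter sequences are shown for 5 members because the loop is wired through short elements near gene starts, and because these 5 windows hold every kind of element found, in genes such as Arntl, Per3 and Nr1d1 whose values are followed below. Of the 10 members, 9 have an entry among RefSeq promoters of build GRCm38.p6, with 13 windows of 300 bases that run from 250 bases before the annotated start to 50 after it. Per2 has no entry. Capitals mark matches to an E-box (CACGTG), to a noncanonical E-box (CACGTT, which reads AACGTG on the other strand), to the D-box TTATGTAA or TTACGTAA, or to the REV-ERB and ROR core site (AGGTCA, or TGACCT on the other strand). Both strands were searched, and no match overlapped another. The windows below are chr7:113207261-113207560 on the plus strand for the second Arntl start and chr11:69098699-69098998 on the plus strand for the first Per1 start. The others lie on the minus strand, at chr4:151044616-151044915 for Per3, chr10:85185005-85185304 for Cry1 and chr11:98775328-98775627 for Nr1d1.
Arntl: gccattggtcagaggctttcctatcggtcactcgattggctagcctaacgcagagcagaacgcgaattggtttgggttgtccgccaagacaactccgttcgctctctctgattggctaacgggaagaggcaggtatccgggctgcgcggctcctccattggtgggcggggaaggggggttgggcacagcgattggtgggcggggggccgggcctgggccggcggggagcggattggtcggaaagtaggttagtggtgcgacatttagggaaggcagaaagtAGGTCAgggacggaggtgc
Per1: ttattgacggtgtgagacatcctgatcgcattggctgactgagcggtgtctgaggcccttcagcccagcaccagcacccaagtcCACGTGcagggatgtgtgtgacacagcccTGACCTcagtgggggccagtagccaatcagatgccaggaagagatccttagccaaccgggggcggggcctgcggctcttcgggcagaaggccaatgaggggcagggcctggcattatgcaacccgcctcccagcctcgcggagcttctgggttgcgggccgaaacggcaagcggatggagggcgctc
Per3: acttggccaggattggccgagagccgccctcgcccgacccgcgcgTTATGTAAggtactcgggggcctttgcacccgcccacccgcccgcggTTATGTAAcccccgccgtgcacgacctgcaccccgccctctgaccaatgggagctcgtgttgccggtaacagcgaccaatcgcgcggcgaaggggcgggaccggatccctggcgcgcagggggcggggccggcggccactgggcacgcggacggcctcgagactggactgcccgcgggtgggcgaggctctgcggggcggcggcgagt
Cry1: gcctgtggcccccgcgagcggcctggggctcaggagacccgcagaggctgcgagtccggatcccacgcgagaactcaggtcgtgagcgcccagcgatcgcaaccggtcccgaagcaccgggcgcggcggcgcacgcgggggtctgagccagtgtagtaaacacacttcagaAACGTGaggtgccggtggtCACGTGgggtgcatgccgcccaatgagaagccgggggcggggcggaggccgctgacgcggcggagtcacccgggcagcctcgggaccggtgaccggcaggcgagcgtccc
Nr1d1: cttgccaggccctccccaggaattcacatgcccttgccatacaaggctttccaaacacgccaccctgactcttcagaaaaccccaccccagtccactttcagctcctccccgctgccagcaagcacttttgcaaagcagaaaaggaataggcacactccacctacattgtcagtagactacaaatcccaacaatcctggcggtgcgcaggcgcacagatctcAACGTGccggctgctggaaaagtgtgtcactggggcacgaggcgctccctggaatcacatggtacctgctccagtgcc

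The Cry1 window held an E-box that begins 60 bases before the start and a noncanonical E-box 79 bases before it. Per1 had an E-box at -166 and a core site at -137, and Nr1d1 a noncanonical E-box at -28. Per3 carried a pair of D-boxes, at -205 and -158, and the second Arntl window a core site at 32 bases after the start. Among windows not printed, Cry2 held a noncanonical E-box at -166, Nr1d2 a core site at -77 and the third Clock window a core site at -119. The Npas2 window held none of these letters, and neither did the first Arntl window, the first and second Clock windows or the second Per1 window. Among all 32851 RefSeq promoter windows of this length, 7.15% hold the E-box, 4.68% the noncanonical E-box, 1.06% a D-box and 16.3% the core site. A cAMP response element (TGACGTCA), held by 1.79% of all windows, occurred in no member window. These matches describe letters in the windows and were not tested as binding sites.

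**Figure D1:**
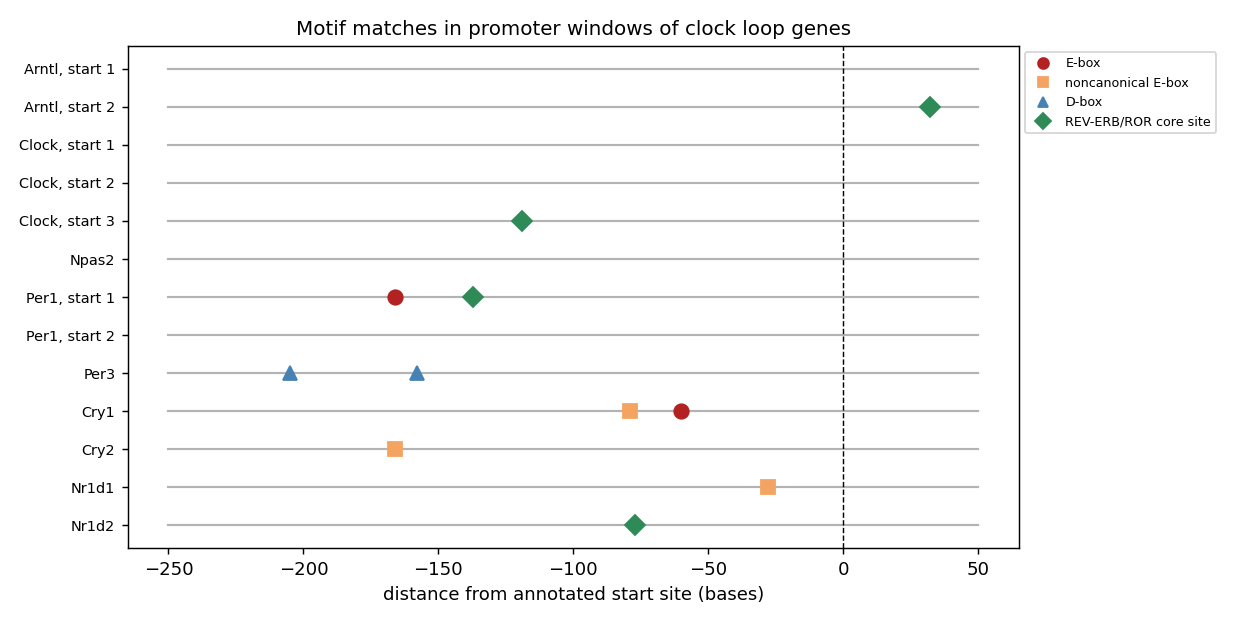
Motif matches in the 13 promoter windows of 9 clock loop genes. The horizontal axis is the distance from the annotated start site in bases, each grey line is 1 window, and symbols stand for E-boxes, noncanonical E-boxes, D-boxes and core sites. Per3 holds 2 D-boxes, and Cry1 holds both E-box forms, at -79 and -60.

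Total counts ran from 15987580 to 22680212 per library. The mitochondrial genome took 34.9% to 36.6% of counts in PRODH TAC and 34.5% to 35.9% in vector TAC, against 39.4% to 40.3% in PRODH sham and 37.9% to 40.9% in vector sham. Levels are given as normalised CPM, counts scaled by TMM to library totals of one size, and the depth behind the members ran from 4 counts (Npas2) to 1792 counts (Nr1d2) per library. Prodh, the gene the virus was meant to raise, averaged 13.6 ± 1.05 CPM in PRODH TAC and 7.28 ± 1.18 in vector TAC, against 13.8 ± 0.955 in PRODH sham and 11 ± 0.454 in vector sham (SD, n = 4 each). Its difference between PRODH sham and vector sham missed the threshold (log2 fold change 0.33 ± 0.10 SE, adjusted p = 0.0517). Prodh was higher in PRODH TAC than in vector TAC (0.90 ± 0.10, adjusted p = 2.19e-08). It was also lower in vector TAC than in vector sham (-0.58 ± 0.11, adjusted p = 2.58e-05), so a fall under the vector enters the former difference. PRODH TAC and PRODH sham did not differ by a call (-0.02 ± 0.10, adjusted p = 0.904). Adjusted p-values are those of a quasi-likelihood test in edgeR, corrected by the Benjamini-Hochberg procedure over all 14066 genes, and a gene is called at an adjusted p under 0.05.

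The cardiomyocyte label was checked against 8 markers that define these cells, Myh6 and Tnnt2 among them. Their summed level was 31252 to 35077 CPM in PRODH TAC and 30496 to 32330 in vector TAC, against 39427 to 45046 in PRODH sham and 40789 to 45038 in vector sham. Markers of other heart cells were present as well. The 10 fibroblast markers summed to 392 to 496 CPM in PRODH TAC and 1429 to 1603 in vector TAC, against 217 to 225 in PRODH sham and 174 to 245 in vector sham. The 10 endothelial markers summed to 720 to 829 CPM in PRODH TAC and 979 to 1087 in vector TAC, against 566 to 612 in PRODH sham and 526 to 631 in vector sham. The 10 myeloid markers stood at 203 to 251 CPM in PRODH TAC and 358 to 387 in vector TAC, against 188 to 228 in PRODH sham and 122 to 194 in vector sham. The 10 mural markers stood at 502 to 571 CPM in PRODH TAC and 536 to 591 in vector TAC, against 425 to 456 in PRODH sham and 433 to 454 in vector sham. Of the 9 lymphoid markers only 1, Cd4, passed the filter, and it stayed at or below 1.3 CPM in every library. The lymphoid markers that failed the filter are not in this value. No marker of any of these lists was at 0 in all 16 libraries. In such bulk samples, fewer cells of a type and less RNA per cell cannot be told apart.

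Compared per kilobase of the deposited gene length, Nr1d2 had the highest mean level of the loop in all 4 groups, at 14.2 CPM per kb in PRODH TAC and 7.58 in vector TAC, against 18.9 in PRODH sham and 13.1 in vector sham. Npas2 was the lowest in each, at 0.188 CPM per kb in PRODH TAC and 0.318 in vector TAC, against 0.0935 in PRODH sham and 0.177 in vector sham. In PRODH TAC the order from high to low was Nr1d2, Cry2, Per1, Nr1d1, Clock, Cry1, Per3, Per2, Arntl and Npas2. Neighbours from Cry2 to Clock overlapped there, and so did Per2 and Arntl. In vector TAC it was Nr1d2, Nr1d1, Per1, Cry2, Cry1, Arntl, Clock, Per2, Per3 and Npas2. Nr1d1 overlapped Per1, and neighbours from Cry2 to Clock overlapped.

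In PRODH sham the members ran Nr1d2, Nr1d1, Cry2, Per1, Per3, Clock, Cry1, Per2, Arntl and Npas2, with overlap between neighbours from Per3 to Per2. In vector sham they ran Nr1d2, Nr1d1, Clock, Per1, Cry2, Arntl, Cry1, Per3, Per2 and Npas2. The libraries of Nr1d2 and Nr1d1 overlapped in vector sham, as did those of neighbours from Clock to Arntl. Arntl thus ranked 9 of 10 in PRODH sham, against 6 of 10 in vector sham. The coefficient of variation of a member among the 4 libraries of a group had a median of 10.6%, with the lowest, 2.68%, for Cry1 in PRODH TAC and the highest, 32.9%, for Arntl in PRODH sham.

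Between PRODH sham and vector sham, a comparison that asks what the virus did without pressure load, 8 of the 10 members changed, while 5.0% of all genes tested did. Per2, Per3, Cry1, Cry2 and Nr1d2 were higher in PRODH sham (2.81% of all genes were called higher), and Arntl, Clock and Nr1d1 were lower (2.20% of all genes were called lower). The median log2 fold change was 0.29 over the members and 0.01 over all genes.

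Arntl (ENSMUSG00000055116), the partner that both CLOCK and NPAS2 need, was the activator that differed most. It had 1.52, 1.25, 1.83 and 0.788 CPM in the PRODH sham libraries, against 6.12, 4.97, 4.65 and 5.03 CPM in the vector sham libraries. Every PRODH sham library lay below every vector sham library. The log2 fold change was -1.92 ± 0.18 (SE, adjusted p = 5.57e-09), and Arntl ranked 23 of 14066 genes by p. The PRODH sham values rest on 12 to 32 counts per library.

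Clock (ENSMUSG00000029238), the DNA-binding partner of BMAL1, stood at 16.6, 14.0, 15 and 12.8 CPM in PRODH sham and at 23.0, 19.5, 22.8 and 23.3 CPM in vector sham. The ranges did not overlap, and the log2 fold change was -0.59 ± 0.09 (adjusted p = 6.55e-05). Npas2 (ENSMUSG00000026077), which can stand in for CLOCK, had 0.409, 0.249, 0.401 and 0.525 CPM in PRODH sham, against 0.783, 0.863, 0.724 and 0.635 CPM in vector sham. Its ranges did not overlap either, but the log2 fold change of -0.92 ± 0.36 missed the threshold (adjusted p = 0.163). All 4 PRODH sham libraries held 4 to 8 counts of Npas2, under the 10 counts of the filter, which it passed through the other groups.

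Among the Period genes, whose proteins carry CRY into the repressive complex, Per2 (ENSMUSG00000055866) had 9.75, 9.22, 9.8 and 7.09 CPM in PRODH sham, against 3.06, 1.42, 2.41 and 2.59 CPM in vector sham. It was 3.86-fold higher (log2 fold change 1.95 ± 0.16, adjusted p = 7.45e-10). Per3 (ENSMUSG00000028957) had 15.1, 11.3, 12.8 and 8.54 CPM in PRODH sham and 3.63, 3.6, 3.92 and 4.5 CPM in vector sham, with a log2 fold change of 1.61 ± 0.14 (adjusted p = 8.32e-10). For both genes all PRODH sham libraries lay above all vector sham libraries, and they ranked 17 and 18 of 14066 genes by p. Per1 (ENSMUSG00000020893), the Period gene that also answers quickly to stress signals, overlapped between the groups, at 15.1, 11.8, 12.4 and 12 CPM in PRODH sham and 10.7, 12.4, 13.6 and 12.5 CPM in vector sham. Its log2 fold change was 0.06, with a 95% interval of -0.17 to 0.29 (adjusted p = 0.879).

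Cry1 (ENSMUSG00000020038), the stronger of the CRY repressors, had 5.49, 5.67, 4.7 and 5.45 CPM in PRODH sham, against 2.92, 3.5, 3.32 and 3.17 CPM in vector sham. Cry2 (ENSMUSG00000068742) had 15.1, 13.8, 15.7 and 15.3 CPM in PRODH sham, against 9.89, 9.03, 11 and 10 CPM in vector sham. Neither pair of ranges overlapped. The log2 fold changes were 0.71 ± 0.12 for Cry1 (adjusted p = 0.00017) and 0.59 ± 0.09 for Cry2 (adjusted p = 8.15e-05).

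The REV-ERB genes moved in opposite directions with the virus after sham. Nr1d2 (ENSMUSG00000021775) had 105, 84.2, 84.8 and 78.2 CPM in PRODH sham and 64.2, 47.4, 63.6 and 68.8 CPM in vector sham, higher by 0.53 ± 0.10 (log2, adjusted p = 0.00204). Nr1d1 (ENSMUSG00000020889) had 22.1, 23.7, 23.0 and 23.1 CPM in PRODH sham and 25.0, 30.7, 29.8 and 28.6 CPM in vector sham, with no overlap, and was lower by a log2 fold change of -0.32 ± 0.09 (adjusted p = 0.0249). The Nr1d1 call was lost without PRODH sham library 1 (adjusted p = 0.0726) or 3 (0.0683), without vector sham library 2 (0.0934), 3 (0.0761) or 4 (0.0539), and with scaling by library size alone (0.0757). In GENCODE M21 the Nr1d1 exons share 263 bases with Thra on the opposite strand, and both genes have fractional counts in all 16 libraries. Whether the counting used strand is not stated, so reads of the 2 genes may not be told apart there. Thra, a thyroid hormone receptor gene, was not called in this comparison (log2 fold change -0.21 ± 0.10, adjusted p = 0.28).

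**Figure D2:**
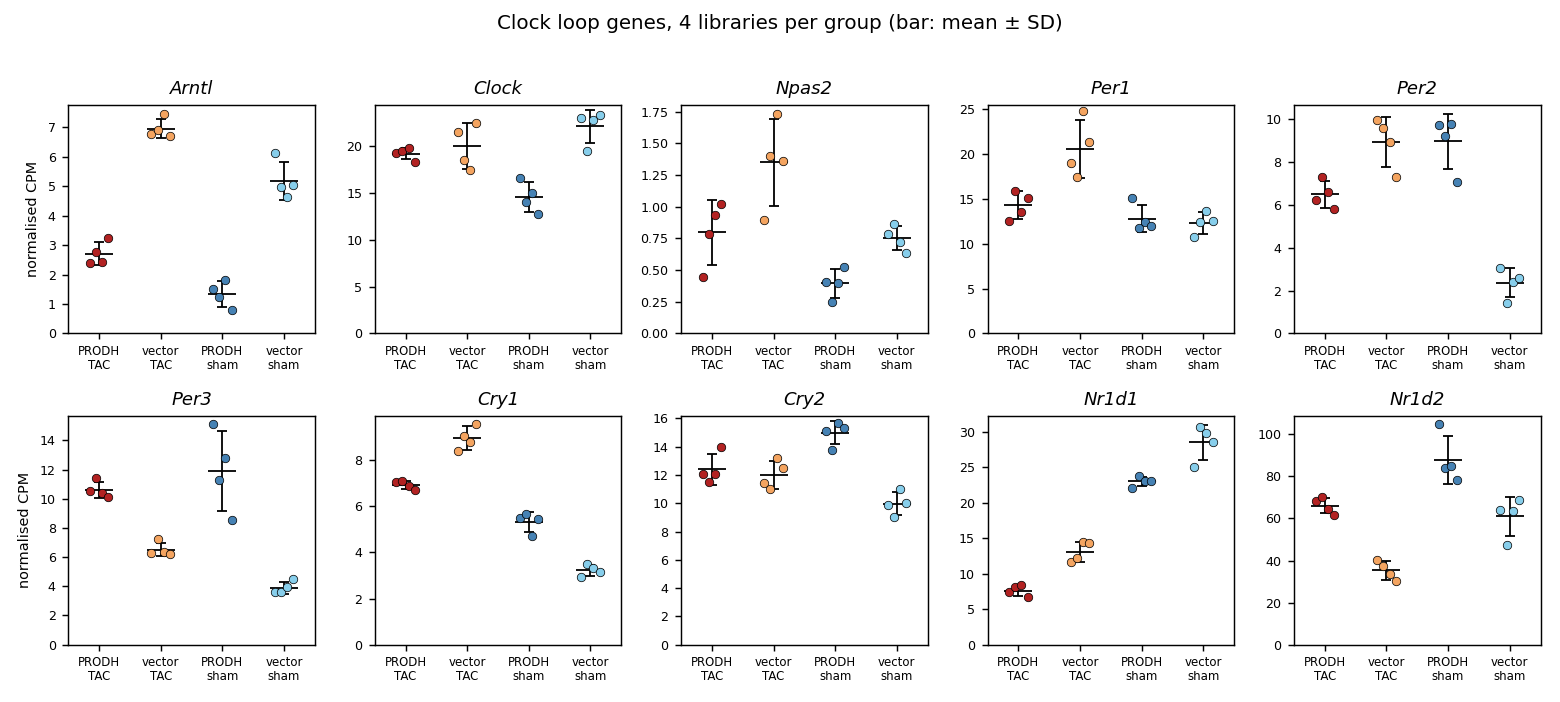
Normalised CPM of the 10 clock loop genes in every library, 4 libraries per group, with the mean and SD as bars; each vertical axis starts at 0. Arntl in the PRODH sham libraries (0.788 to 1.83 CPM) lies below the other 3 groups, and Per2 in the vector sham libraries (1.42 to 3.06 CPM) lies below the other 3 groups.

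The comparison of vector TAC with vector sham asks what pressure overload did under the control virus. Of the 10 members 7 were higher after TAC (30.3% of all genes tested were) and 2 were lower (26.2% of all genes), so that 9 of 10 changed where 56.5% of all genes did. The median log2 fold change was 0.58 over the members and 0.02 over all genes. Per2 and Cry1 rose most and Nr1d1 fell most. Only Clock was not called, at 21.5, 18.5, 17.4 and 22.5 CPM in vector TAC and the vector sham values above (log2 fold change -0.14, 95% interval -0.33 to 0.04, adjusted p = 0.182).

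Per2 had 9.95, 9.57, 8.96 and 7.32 CPM in vector TAC, against 1.42 to 3.06 CPM in vector sham, a 3.85-fold difference (log2 1.95 ± 0.16, adjusted p = 1.85e-11). Cry1 had 8.38, 9.05, 8.81 and 9.59 CPM in vector TAC, against 2.92 to 3.5 CPM in vector sham (log2 fold change 1.46 ± 0.11, adjusted p = 3.06e-12). Nr1d1 had 11.7, 12.2, 14.4 and 14.3 CPM in vector TAC, against 25.0 to 30.7 CPM in vector sham (-1.13 ± 0.09, adjusted p = 6.9e-12). In none of these 3 genes did the groups overlap, but among all members they overlapped only in Clock, so this does not set the 3 apart. The share of all genes without overlap is not given here. Thra had a log2 fold change of 0.05 (adjusted p = 0.702).

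Smaller changes followed in the remaining members. Per1 stood at 17.4 to 24.8 CPM in vector TAC, against 10.7 to 13.6 CPM in vector sham (log2 fold change 0.74 ± 0.11), and Per3 at 6.23 to 7.23 CPM in vector TAC, against 3.6 to 4.5 CPM in vector sham (0.73 ± 0.14). Arntl stood at 6.72 to 7.44 CPM in vector TAC and 4.65 to 6.12 CPM in vector sham (0.43 ± 0.14, adjusted p = 0.0087). Nr1d2 had 30.1 to 40.2 CPM in vector TAC, against 47.4 to 68.8 CPM in vector sham, and fell (-0.78 ± 0.11, adjusted p = 1.23e-06). Npas2 (0.82 ± 0.29) and Cry2 (0.27 ± 0.10) were higher, each with an adjusted p of 0.0166. The Npas2 call was lost without vector TAC library 3 (0.0716) or vector sham library 4 (0.0559), and that of Cry2 without vector TAC library 3 (0.0647) or vector sham library 2 (0.0795). Scaling by library size alone, which shifts the median of all genes to 0.37, gave Arntl 0.78, Cry2 0.62 and Nr1d2 -0.42, and turned Clock to 0.21.

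Cell type markers moved with this comparison, with the sums given above. Of the fibroblast, endothelial and myeloid markers, 10 of 10 of each were higher in vector TAC than in vector sham. Of the 10 mural markers 7 were higher and 2 lower, and of the 8 cardiomyocyte markers 7 were lower and none was higher. Of all genes, 30.3% were called higher and 26.2% lower. The part of these cell types in the changes of the clock genes was not tested.

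The contrast of PRODH TAC with vector TAC asks what the virus did under pressure load. Here 2 members were higher, Per3 and Nr1d2 (18.5% of all genes tested were called higher), and 6 were lower, Arntl, Npas2, Per1, Per2, Cry1 and Nr1d1 (24.6% of all genes were called lower). In all, 8 of 10 changed, against 43.1% of all genes. The median log2 fold change was -0.42 over the members and -0.04 over all genes.

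Arntl showed the largest difference among the members here. It had 2.41, 2.77, 2.44 and 3.23 CPM in PRODH TAC, against 6.76, 6.91, 7.44 and 6.72 CPM in vector TAC, with no overlap (log2 fold change -1.36 ± 0.14, adjusted p = 5.35e-09). Nr1d1 had 7.36, 8.1, 8.37 and 6.65 CPM in PRODH TAC, against 11.7 to 14.4 CPM in vector TAC (-0.78 ± 0.10, adjusted p = 1.19e-07). Thra was lower here too, with a log2 fold change of -0.28 ± 0.09 (adjusted p = 0.0153). Nr1d2 went the other way, at 68.1, 70.1, 64.4 and 61.8 CPM in PRODH TAC, against 40.2, 37.3, 33.8 and 30.1 CPM in vector TAC (0.90 ± 0.11, adjusted p = 3e-07).

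The Period genes split as well. Per3 had 10.5, 11.4, 10.4 and 10.1 CPM in PRODH TAC, against 6.3, 7.23, 6.34 and 6.23 CPM in vector TAC, and was higher by 0.70 ± 0.12 (log2, adjusted p = 2.63e-05). Per1 had 12.5, 15.9, 13.5 and 15.1 CPM in PRODH TAC, against 19.0, 17.4, 24.8 and 21.4 CPM in vector TAC (-0.53 ± 0.10, adjusted p = 0.000123). Per2 had 6.23, 7.31, 6.62 and 5.83 CPM in PRODH TAC, against 7.32 to 9.95 CPM in vector TAC (-0.47 ± 0.13, adjusted p = 0.00494). The highest PRODH TAC library of Per2 lay just under the lowest vector TAC library.

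Cry1 was lower at 7.04, 7.11, 6.87 and 6.69 CPM in PRODH TAC, against 8.38 to 9.59 CPM in vector TAC (-0.37 ± 0.10, adjusted p = 0.00255). Cry2, at 11.5 to 14.0 CPM in PRODH TAC and 11 to 13.2 CPM in vector TAC, overlapped (0.05, 95% interval -0.14 to 0.23, adjusted p = 0.702). Clock, at 18.3 to 19.8 CPM in PRODH TAC and 17.4 to 22.5 CPM in vector TAC, overlapped too (-0.06, 95% interval -0.24 to 0.12, adjusted p = 0.629). Npas2 had 0.442, 0.785, 0.934 and 1.02 CPM in PRODH TAC, against 0.893, 1.4, 1.73 and 1.36 CPM in vector TAC, with overlapping ranges and a log2 fold change of -0.74 ± 0.27 (adjusted p = 0.0286). That call was lost without PRODH TAC library 1 (0.126) or 2 (0.0585) and without vector TAC library 2 (0.0547), 3 (0.118) or 4 (0.0555). It was also lost with no filter on low counts (0.0548) and with DESeq2 (0.055).

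All 10 fibroblast and all 10 endothelial markers, and 8 of 10 myeloid markers, were lower in PRODH TAC than in vector TAC. Of the 10 mural markers 2 were higher and 5 lower, and of the 8 cardiomyocyte markers 3 were higher and 1 lower. Of all genes, 18.5% were called higher and 24.6% lower. The part of these cells in the changes of the clock genes was not tested. Between PRODH sham and vector sham, none of the 10 fibroblast markers and none of the 8 cardiomyocyte markers was called. Of 10 markers each, 1 endothelial marker was higher and 1 lower, 2 mural markers were lower and 4 myeloid markers were higher. Only 2.81% of all genes were called higher there and 2.20% lower, so the myeloid markers stood above that share. Their part in the sham comparison was not tested either.

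**Figure D3:**
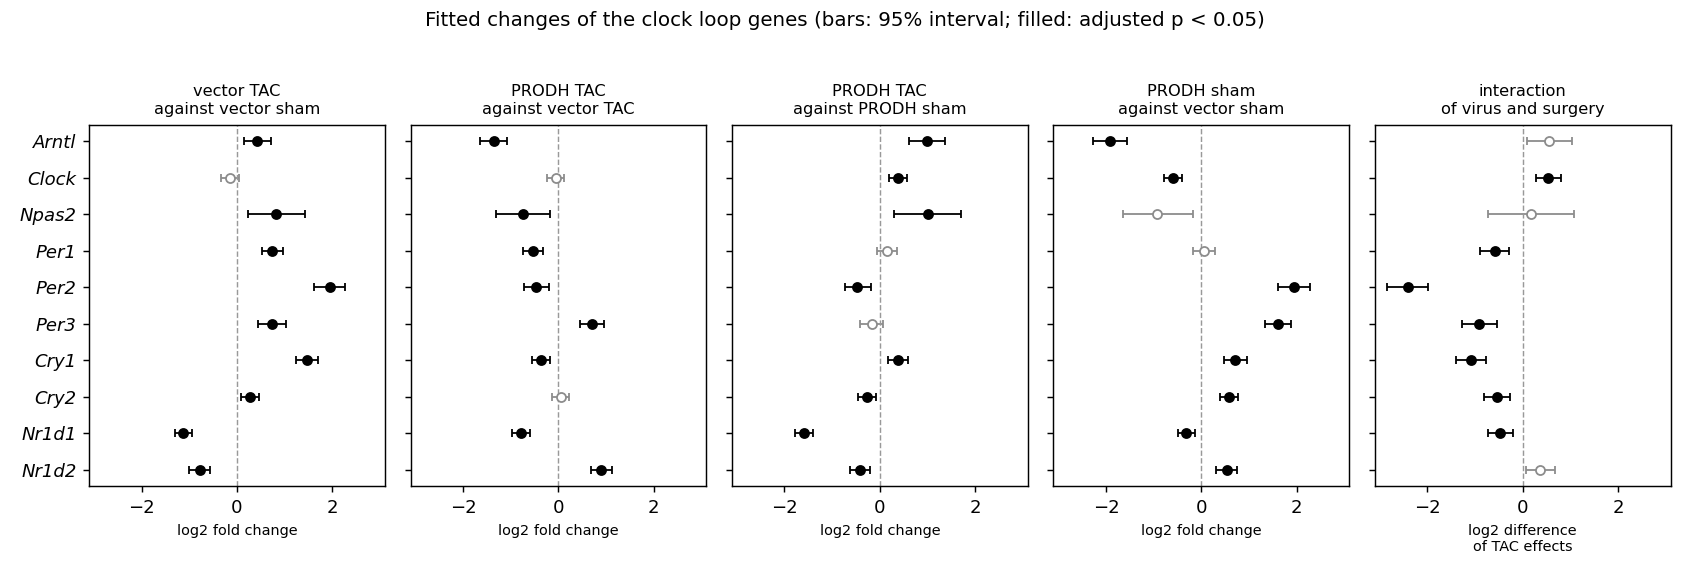
Fitted log2 fold changes of the 10 clock loop genes in the 4 comparisons, and the log2 difference of the TAC effects (PRODH minus vector), with 95% intervals; filled points have an adjusted p under 0.05. Per2 stands at 1.95 in both vector TAC against vector sham and PRODH sham against vector sham, and at -2.41 in the interaction.

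With the PRODH virus, TAC changed 8 of 10 members relative to PRODH sham, where 35.0% of all genes changed. Arntl, Clock, Npas2 and Cry1 were higher (17.2% of all genes were called higher), and Per2, Cry2, Nr1d1 and Nr1d2 were lower (17.8% of all genes were called lower). The median was -0.01 over the members and 0.02 over all genes. Nr1d1 gave the smallest adjusted p of the loop in any of the 5 comparisons, here: 6.65 to 8.37 CPM in PRODH TAC, against 22.1 to 23.7 CPM in PRODH sham, a log2 fold change of -1.59 ± 0.09 (adjusted p = 1.22e-13, rank 10 of 14066 genes by p). Arntl was higher at 2.41 to 3.23 CPM in PRODH TAC, against 0.788 to 1.83 CPM in PRODH sham (0.99 ± 0.19, adjusted p = 0.000132).

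Clock rose to 18.3 to 19.8 CPM in PRODH TAC, against 12.8 to 16.6 CPM in PRODH sham (0.39 ± 0.09, adjusted p = 0.00143), and Cry1 to 6.69 to 7.11 CPM in PRODH TAC, against 4.7 to 5.67 CPM in PRODH sham (0.38 ± 0.10, adjusted p = 0.00529). Nr1d2 fell to 61.8 to 70.1 CPM in PRODH TAC, against 78.2 to 105 CPM in PRODH sham (-0.41 ± 0.10, adjusted p = 0.0032). Per2 overlapped by 1 library in each group and was lower (-0.47 ± 0.13, adjusted p = 0.00711). Per1 (0.15, 95% interval -0.07 to 0.37) and Per3 (-0.17, 95% interval -0.41 to 0.06) were not called. Npas2 (1.00 ± 0.34, adjusted p = 0.0224) and Cry2 (-0.27 ± 0.09, adjusted p = 0.0187) were called with overlapping ranges. Npas2 stood at 0.442 to 1.02 CPM in PRODH TAC and 0.249 to 0.525 CPM in PRODH sham. The PRODH sham values rest on 4 to 8 counts per library, under the 10 counts of the filter, which Npas2 passed through the other groups. The Npas2 call was lost without PRODH TAC library 3 (0.0595) or 4 (0.0692) or PRODH sham library 2 (0.0701). The Cry2 call was lost without PRODH TAC library 2 (0.0699), without PRODH sham library 1 (0.0644), 3 (0.0991) or 4 (0.0829), and with no filter on low counts (0.057).

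Scaling by library size alone gave a median of 0.40 over all genes in this comparison, in place of 0.02, and left 1 of the 4 lower calls. Per2 then stood at -0.09, Nr1d2 at -0.04 and Cry2 at 0.11, none called, while Clock stood at 0.77, Cry1 at 0.76 and Per1 at 0.53, all called. Nr1d1 kept its lower call. Of the marker lists, 9 of 10 fibroblast, 8 of 10 endothelial, 8 of 10 mural and 2 of 10 myeloid markers were higher in PRODH TAC than in PRODH sham. Of the 8 cardiomyocyte markers 6 were lower and none was higher. Of all genes, 17.2% were called higher and 17.8% lower. The part of these cell types was not tested.

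The interaction compares the TAC effect under PRODH with that under the vector. It was called lower for 6 of 10 members and higher for 1, against 15.8% and 10.9% of all genes, or 26.8% in either direction. The median was -0.50 over the members and -0.04 over all genes. Per2 led with -2.41 ± 0.21 (log2 difference, adjusted p = 7.2e-10): TAC went with a lower level under PRODH (-0.47) and with a higher level under the vector (1.95). Cry1 rose under both viruses, but less under PRODH (0.38) than under the vector (1.46), a difference of -1.08 ± 0.15 (adjusted p = 4.16e-06). Per3 differed by -0.91 ± 0.18 (adjusted p = 0.00044), with TAC effects of -0.17 under PRODH and 0.73 under the vector.

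Per1 (-0.59 ± 0.15, adjusted p = 0.00478) and Cry2 (-0.54 ± 0.13, adjusted p = 0.0025) followed the same direction. Nr1d1 fell more after TAC under PRODH (-1.59) than under the vector (-1.13), and the difference of -0.47 ± 0.13 was called (adjusted p = 0.00759). Clock was the only member called with a positive difference, 0.54 ± 0.13 (adjusted p = 0.00252). The interaction missed the threshold for Arntl (0.56 ± 0.23, adjusted p = 0.0739), Nr1d2 (0.37 ± 0.15, adjusted p = 0.0661) and Npas2 (0.18 ± 0.44, adjusted p = 0.806). Arntl passed without PRODH sham library 1 (0.0487) or 3 (0.0184) or vector sham library 3 (0.0439). Nr1d2 passed without PRODH TAC library 4 (0.0468), vector TAC library 1 (0.0316), PRODH sham library 1 (0.00695) or vector sham library 2 (0.00267). With these, between 1 and 3 members had a higher call.

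The comparisons share groups, so their values are set side by side without a measure of likeness. Per2 averaged 6.5 CPM in PRODH TAC and 8.95 in vector TAC, against 8.97 in PRODH sham and 2.37 in vector sham, and vector sham stood apart from the rest. Per3 averaged 10.6 CPM in PRODH TAC and 6.52 in vector TAC, against 11.9 in PRODH sham and 3.91 in vector sham, and both PRODH groups lay above both vector groups. Arntl averaged 2.71 CPM in PRODH TAC and 6.96 in vector TAC, against 1.35 in PRODH sham and 5.19 in vector sham, with both PRODH groups below both vector groups. Nr1d1, at 7.62 CPM in PRODH TAC and 13.1 in vector TAC, against 23.0 in PRODH sham and 28.5 in vector sham, was ordered first by surgery, with both TAC groups below both sham groups. The highest group mean was 5.17 times the lowest for Arntl and 1.5 times for Cry2, the widest and the narrowest span of the loop.

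Ratios within a library do not depend on how libraries are scaled. On levels per length, Arntl over Nr1d1, an activator over its repressor, was 0.362, 0.377, 0.322 and 0.536 in PRODH TAC and 0.638, 0.628, 0.57 and 0.521 in vector TAC. It was 0.076, 0.058, 0.0879 and 0.0378 in PRODH sham and 0.271, 0.179, 0.172 and 0.194 in vector sham. The TAC groups overlapped by 1 library each, the sham groups did not overlap, and both sham groups lay below both TAC groups. Arntl over Per2 was 0.871 to 1.31 in PRODH TAC and 1.61 to 2.17 in vector TAC, against 0.263 to 0.443 in PRODH sham and 4.56 to 8.29 in vector sham, so that no 2 groups overlapped and the vector sham libraries were the highest.

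Between paralogues, Nr1d2 over Nr1d1 was 4.49 to 5.42 in PRODH TAC and 1.23 to 2.01 in vector TAC, against 1.98 to 2.77 in PRODH sham and 0.901 to 1.5 in vector sham. The PRODH TAC libraries were the highest on this ratio, without overlap. Cry1 over Cry2 was 0.629 to 0.813 in PRODH TAC and 0.876 to 1.08 in vector TAC, against 0.393 to 0.541 in PRODH sham and 0.388 to 0.509 in vector sham, higher in both TAC groups than in both sham groups. Per3 over Per2 was 1.52 to 1.68 in PRODH TAC and 0.615 to 0.828 in vector TAC, against 1.17 to 1.5 in PRODH sham and 1.15 to 2.47 in vector sham, lowest in vector TAC. Clock over Npas2 was 10.2 to 24.7 in PRODH TAC and 5.7 to 13.6 in vector TAC, against 13.8 to 31.9 in PRODH sham and 12.8 to 20.8 in vector sham, and overlapped throughout except between vector TAC and PRODH sham.

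**Figure D4:**
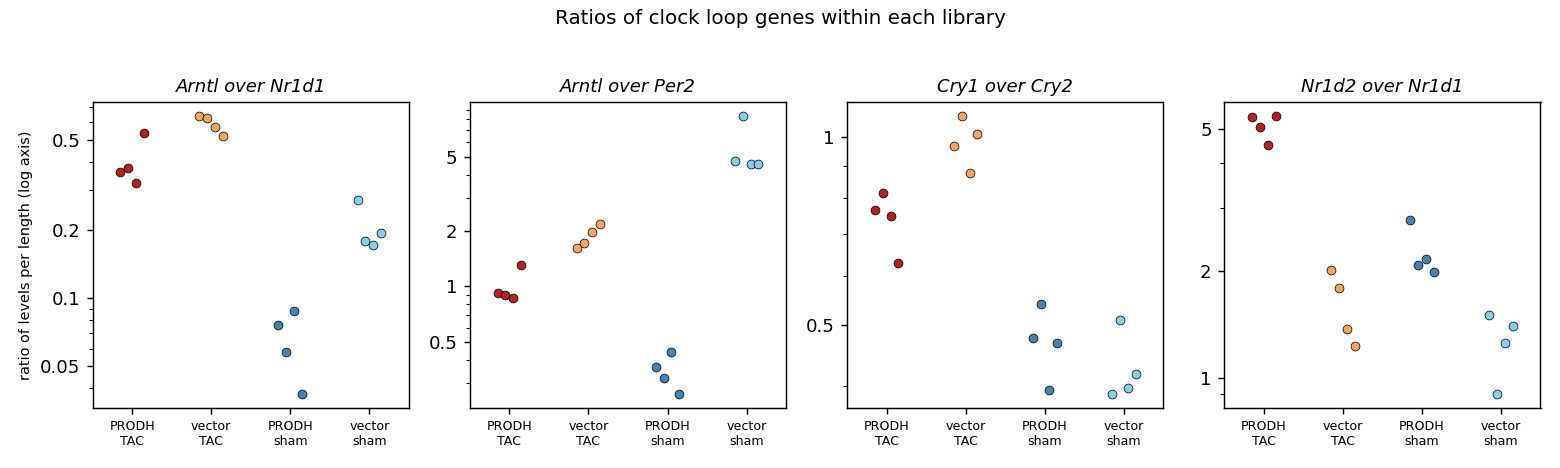
Ratios of levels per length within each library for 4 pairs of clock loop genes, on log axes, with 4 libraries per group. Arntl over Per2 runs from 0.263 to 0.443 in PRODH sham and from 4.56 to 8.29 in vector sham, and Nr1d2 over Nr1d1 is highest in PRODH TAC.

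A list of 11 other clock transcription factors, all tested, surrounds the loop. Between PRODH sham and vector sham 8 of them were higher and 1 was lower, against 2.81% and 2.20% of all genes. Their median log2 fold change was 0.42, against 0.01 over all genes. Dbp, Tef and Hlf, which encode activators that bind D-boxes, all rose. Dbp had 44.0, 48.9, 53.0 and 56.8 CPM in PRODH sham, against 18.5, 20.6, 19.5 and 18.7 CPM in vector sham (1.39 ± 0.08, adjusted p = 6.39e-13, rank 2 of 14066 genes). Tef (1.01 ± 0.07) ranked 12 and Hlf (1.27 ± 0.10) ranked 16. Nfil3, the repressor at the same element, was lower, at 4.49 to 6.48 CPM in PRODH sham and 6.34 to 9.54 CPM in vector sham (-0.47 ± 0.13, adjusted p = 0.032).

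Ciart, whose product represses the BMAL1 and CLOCK pair, had 2.92, 3.05, 2.52 and 3.09 CPM in PRODH sham, against 0.996, 0.609, 0.604 and 0.476 CPM in vector sham (2.13 ± 0.24, adjusted p = 2.11e-07). The E-box repressor genes Bhlhe41 (0.61 ± 0.10) and Bhlhe40 (0.27 ± 0.08, adjusted p = 0.0479) were higher, as was the activator gene Rora (0.42 ± 0.12, adjusted p = 0.0408). Arntl2 (0.13 ± 0.26) and Rorb (-0.58 ± 0.39) were not called. With 1 library left out, 5 to 8 of the 11 were called higher, and with library size alone 6. The count was 5 without PRODH TAC library 1, PRODH sham library 1 or vector sham library 1 or 3, and with only the 2 groups compared. The Nfil3 call was lost without PRODH sham library 1 or 3 or vector sham library 1 or 2, with only the 2 groups compared and with library size alone.

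After TAC the same list gave 3 higher and 2 lower between PRODH TAC and vector TAC, a share near that of all genes (43.1% called). Tef had 73.4, 75.8, 78.3 and 83.9 CPM in PRODH TAC, against 48.0, 41.5, 50.4 and 45.6 CPM in vector TAC (0.75 ± 0.07, adjusted p = 1.12e-09). Hlf (0.46 ± 0.10) and Dbp (0.33 ± 0.09) were higher, and Bhlhe40 (-0.67 ± 0.08) and Nfil3 (-0.55 ± 0.11) lower. In vector TAC against vector sham 7 were higher and 1, Dbp, was lower (-0.71 ± 0.09, adjusted p = 5.49e-08), against 30.3% and 26.2% of all genes. The higher count was 8 with library size alone and 6 or 7 with 1 library left out. It was 6 with median-of-ratios size factors, no filter on low counts, the replicate block, only the 2 groups compared, no mitochondrial genome genes and DESeq2. Without vector TAC library 4 or vector sham library 4, 2 were lower.

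PRODH TAC against PRODH sham gave 1 higher, Nfil3 (0.48 ± 0.13), and 5 lower, against 17.2% and 17.8% of all genes. Dbp stood at 14.9, 13.9, 14.7 and 16.1 CPM in PRODH TAC, against 44.0 to 56.8 CPM in PRODH sham (-1.77 ± 0.08, adjusted p = 8.07e-16), and ranked 1 of 14066 genes by p. Ciart fell by 1.48 on the log2 scale, Hlf by 0.55, Bhlhe40 by 0.53 and Bhlhe41 by 0.43. Scaled by library size alone, 4 of the list were higher and 2 lower, and without PRODH sham library 1, 2 were higher. The interaction was lower for 6 of the 11 and higher for none, under each scaling, against 15.8% and 10.9% of all genes. Among the 6 were Ciart (-2.47 ± 0.33), Dbp (-1.05 ± 0.12), Bhlhe40 (-0.94 ± 0.11), Hlf (-0.81 ± 0.15) and Bhlhe41 (-0.80 ± 0.13).

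**Figure D5:**
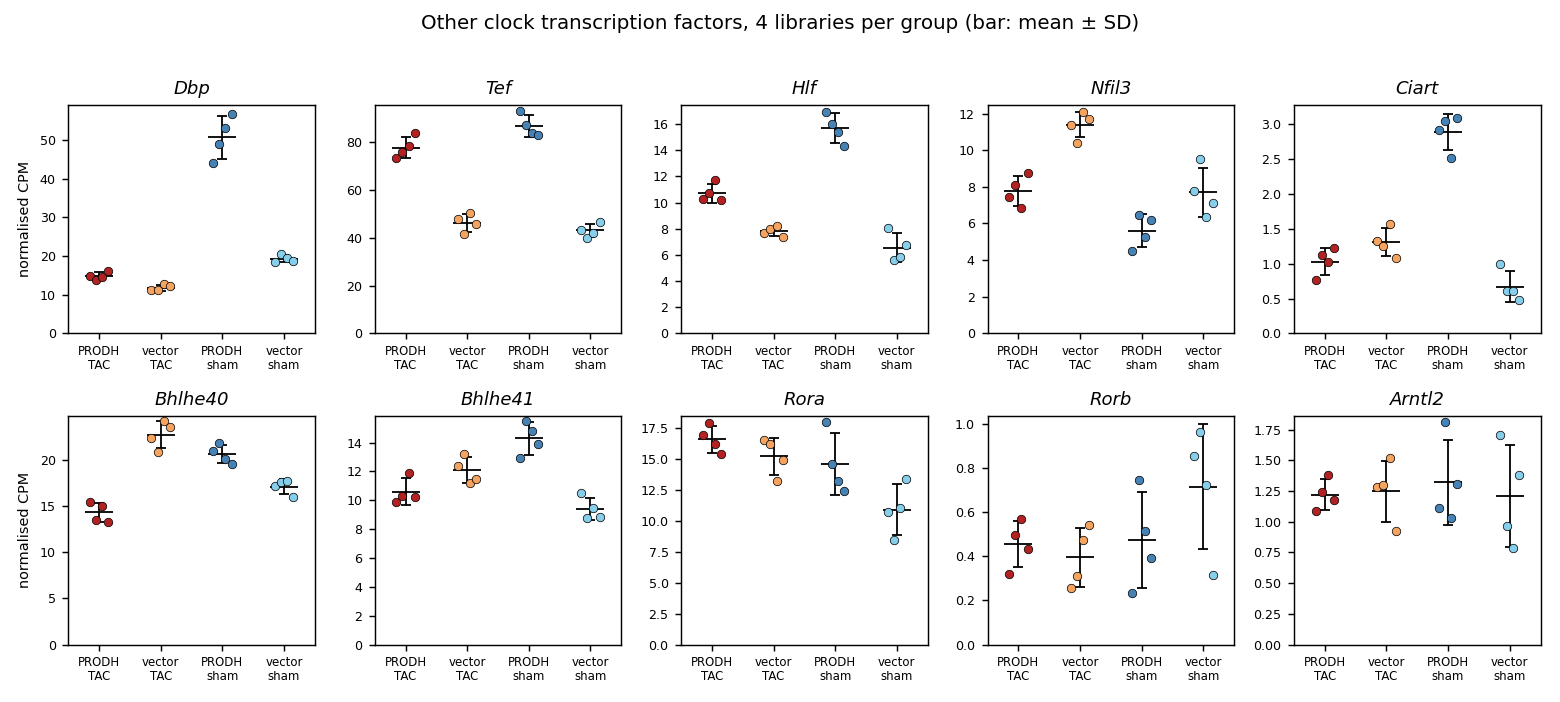
Normalised CPM of 10 other clock transcription factors in every library, with the mean and SD of 4 libraries per group as bars; each vertical axis starts at 0. Dbp runs from 44.0 to 56.8 CPM in PRODH sham and stays at or below 20.6 CPM in the other 3 groups.

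Kinases, ligases and cofactors that act on clock proteins formed a list of 25. Of these 24 were tested (Fbxl21 was not). Between PRODH sham and vector sham 2 regulators were higher and none was lower, against 2.81% and 2.20% of all genes. The 2 higher regulators were Usp2, a deubiquitinase of clock proteins, at 57.7, 62.0, 55.8 and 63.1 CPM in PRODH sham against 47.8, 42.9, 41.4 and 41.4 CPM in vector sham (0.46 ± 0.07, adjusted p = 9.64e-05), and Timeless (0.44 ± 0.12, adjusted p = 0.0344). Both were named after their values were seen. The count was 1 without PRODH sham library 2 or 3 or vector sham library 1 or 4, with no filter on low counts and with only the 2 groups compared. In vector TAC against vector sham 6 were higher and 4 lower, in PRODH TAC against vector TAC 5 and 2, and in PRODH TAC against PRODH sham 4 and 3. Of all genes tested, 56.5%, 43.1% and 35.0% were called in these comparisons, and the 24 regulators stood below those shares. In PRODH TAC against vector TAC the higher count was 8 without PRODH TAC library 4, PRODH sham library 1, 2 or 4 or vector sham library 1, 2 or 4, and with only the 2 groups compared, and the lower count was 4 without vector TAC library 2. In PRODH TAC against PRODH sham the higher count was 7 without PRODH sham library 1 and 8 or 9 without any 1 vector sham library. Library size alone gave 17 higher and 1 lower in vector TAC against vector sham, and 20 and 0 in PRODH TAC against PRODH sham.

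The interaction was called for 4 of the 24 regulators, 2 higher and 2 lower. Of all genes, 10.9% were called higher and 15.8% lower, or 26.8% in either direction. The lower count was 1 without PRODH TAC library 1 or 4, PRODH sham library 1, 3 or 4 or vector sham library 1, 2 or 4, and with no filter on low counts. Prkaa2, a catalytic subunit of the energy sensor AMPK, which marks CRY1 for degradation, had 94.5, 94.4, 102 and 99.5 CPM in PRODH TAC, against 61.4, 57.9, 62.9 and 60.6 CPM in vector TAC, and its interaction was 0.74 ± 0.12 (adjusted p = 4.72e-05). Csnk2a1, a catalytic subunit of casein kinase 2, was also positive (0.36 ± 0.10, adjusted p = 0.0103). Csnk1e, a kinase of PER proteins (-0.42 ± 0.11, adjusted p = 0.00651), and Hdac3, the deacetylase recruited by REV-ERB (-0.32 ± 0.10, adjusted p = 0.0203), were negative.

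A list of 9 heart genes described as clock-controlled was 7 higher and none lower in PRODH TAC against vector TAC, where 18.5% and 24.6% of all genes were, with a median of 0.54 against -0.04 over all genes. In vector TAC against vector sham it was 1 higher and 8 lower, against 30.3% and 26.2% of all genes, and 5 lower with library size alone. Nampt, the rate-limiting enzyme of NAD salvage, had 164, 153, 163 and 149 CPM in PRODH TAC, against 84.1, 89.2, 63.5 and 66.7 CPM in vector TAC (1.05 ± 0.09, adjusted p = 4.43e-11). It had 179, 170, 171 and 154 CPM in PRODH sham, against 120, 102, 104 and 113 CPM in vector sham (0.62 ± 0.09, adjusted p = 9.9e-06). Wee1, a cell cycle kinase gene with E-boxes in its promoter, had 8.46, 7.73, 8.54 and 7.29 CPM in PRODH sham, against 4.63, 4.31, 2.78 and 3.39 CPM in vector sham (1.09 ± 0.14, adjusted p = 2.33e-06).

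Wee1 differed between the TAC effects by -1.05 ± 0.18 (adjusted p = 7.52e-05). Positive interactions were called, among others, for Pdk4, which limits glucose oxidation (0.74 ± 0.11), Kcnh2 and Kcnip2, a potassium channel gene and the gene of a channel subunit (0.59 ± 0.12 and 0.41 ± 0.10) and Nampt (0.43 ± 0.12). Kcnh2 had 19.8 to 22.2 CPM in PRODH TAC and 10.6 to 14.0 CPM in vector TAC, against 28.0 to 31.0 CPM in PRODH sham and 24.1 to 28.2 CPM in vector sham. In all, the interaction was higher for 5 and lower for 1 of the 9, against 10.9% and 15.8% of all genes. In PRODH sham against vector sham 4 were higher and 1, Pdk4, was lower (2.81% and 2.20% of all genes). In PRODH TAC against PRODH sham none was higher and 5 were lower (17.2% and 17.8% of all genes), against 3 higher and 1 lower with library size alone. Without PRODH sham library 1, vector TAC library 2 or any 1 vector sham library, 1 was higher there.

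Glucocorticoids reset peripheral clocks and act on Per1 directly, so 10 of their target genes were read beside the loop. Fkbp5, a cochaperone of the glucocorticoid receptor, had 8.25, 8.18, 7.23 and 7.91 CPM in PRODH TAC, against 26.4, 26.0, 28.3 and 24.7 CPM in vector TAC (-1.74 ± 0.08, adjusted p = 1.61e-16). It had 7.97 to 8.78 CPM in PRODH sham and 7.12 to 8.68 CPM in vector sham, so the vector TAC libraries stood alone. Of the 10 genes 7 were lower and 1 higher in PRODH TAC against vector TAC, where 24.6% and 18.5% of all genes were. With 1 library left out, 0 to 2 were higher: none without vector TAC library 3 or 4, and 2 without PRODH TAC library 4 or any 1 sham library. In vector TAC against vector sham 5 were higher and 3 lower (30.3% and 26.2% of all genes), and 1 was lower with library size alone. In PRODH sham against vector sham none was higher and 5 were lower (2.81% and 2.20% of all genes), and 3 were lower without PRODH sham library 2 or 3 or vector sham library 2 or 3. In PRODH TAC against PRODH sham 2 were higher and 3 lower (17.2% and 17.8% of all genes). With library size alone these counts were 6 and 0, and 1 was lower without PRODH sham library 1. Summed over the 10 genes, levels were 587 to 611 CPM in PRODH TAC and 661 to 704 in vector TAC. They were 620 to 713 CPM in PRODH sham and highest, 808 to 865, in vector sham. Interactions were called lower for Fkbp5 (-1.87 ± 0.13), Tsc22d3 (-0.78 ± 0.11) and the kinase gene Sgk1 (-0.42 ± 0.10). Pdk4 went the other way (0.74 ± 0.11). Of all genes, 15.8% had a lower and 10.9% a higher interaction.

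Immediate early genes, which rise within minutes of a stimulus and during cell isolation, also moved with the groups. Of 17 such genes 14 were lower and none was higher in PRODH TAC against vector TAC, where 24.6% and 18.5% of all genes were. In PRODH sham against vector sham 8 were lower and 1 higher, where 2.20% and 2.81% of all genes were. They summed to 383 to 425 CPM in PRODH TAC and 541 to 574 in vector TAC, against 409 to 434 in PRODH sham and 499 to 538 in vector sham. In vector TAC against vector sham 9 were higher and 2 lower (30.3% and 26.2% of all genes), and 15 and 1 with library size alone. Their part in the levels of Per1 and the other members was not tested.

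After the group means were subtracted, the genes that varied most like Arntl over the 16 libraries were Atrn (Pearson r 0.92), Ddi2 (0.90) and Narf (0.821), and most unlike were Dynll1 (-0.825), Rap1gap (-0.823) and Tsg101 (-0.798), among 8076 genes searched. For Nr1d1 they were Scd1 (0.808), Ehmt2 (0.791) and Aebp1 (0.785), and Prps1 (-0.855), Gspt1 (-0.801) and Akap9 (-0.791). None of these is a member of the loop. Among the members themselves, Per2 and Nr1d2 had the highest within-group r of any pair, 0.838 (Spearman rho 0.862), and Per2 and Cry1 the lowest, -0.61 (rho -0.485). These values describe libraries that share depth and preparation, and no test was made of them.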

How the data were processed

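The authors deposited estimated counts for each gene model and library, which need not be whole; 9538 of 57010 gene models have a fractional count (tolerance 0.001) in at least 1 library. Per the labels' protocols, RNA was extracted with TRIzol, treated with DNase I and made into libraries with a SMARTER mRNA-Seq kit. The sources used here name no aligner, counter, annotation or build. All per-sample columns matched a sample by name (0 unmatched), and groups came from the labels.

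These counts were rounded to whole numbers, then filtered with filterByExpr (minimum count 10, minimum total 15). All 16 libraries were fitted in edgeR 4.0.16 (R 4.3.3, limma 3.58.1) with TMM factors, robust quasi-likelihood spread, a prior count of 0.125, the 4 groups and no block. Adjustment followed Benjamini and Hochberg over 14066 genes. The SE is the absolute log2 fold change over the square root of F, and SDs are over the 4 libraries of a group. The procedure was tested on simulated data. Alternatives were other size factors, library size alone, DESeq2 1.42.0, no filter, a replicate block, only the groups compared, no mitochondrial genes and each library left out. Exon overlaps came from GENCODE M21 and promoters from RefSeq GRCm38.p6; the build of the deposited table may differ. Tables and figures used Python 3.11.15, pandas 2.3.3, scipy 1.17.1 and matplotlib 3.10.9.

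The members and lists were chosen with earlier results of these data known. Named genes were all members and the 11 other clock transcription factors, Prodh, overlapping genes and, from the other lists, up to 6 with a called interaction by smallest p. For Arntl and Nr1d1 they also were the 3 most alike and 3 most unlike genes of at least 5 CPM, Gm and Rik models left out. Some genes these rules name are not reported here.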

Additional observations from a re-analysis of the deposited data

Results flagged for a closer look

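In 3 of the 40 sets of 4 libraries examined (10 genes in 4 groups), 1 library lay far from the other 3, with a gap to its nearest neighbour past Dixon's 95% critical value. Chance gives about 1 in 20 such sets. Clock in vector sham library 2 was 19.5 CPM, against 22.8 to 23.3 CPM in the other 3 (gap 0.863 of the range). Per1 in PRODH sham library 1 was 15.1 CPM, against 11.8 to 12.4 CPM in the others (0.835). Per3 in vector TAC library 2 was 7.23 CPM, against 6.23 to 6.34 CPM in the others (0.89). Without PRODH sham library 1 the Per1 value between PRODH sham and vector sham was -0.04, against 0.06 with it, and it was called in neither case.

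For 7 genes the TAC effect differed between the viruses by the edgeR interaction test, as log2 difference (PRODH minus vector). These were Clock (0.54), Per1 (-0.59), Per2 (-2.41), Per3 (-0.91), Cry1 (-1.08), Cry2 (-0.54) and Nr1d1 (-0.47). The largest adjusted p among them was 0.00759, for Nr1d1.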

How the results depend on the processing

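Of 1140 recomputed gene values, 1096 kept their direction and side of the threshold, 27 lost a call, 13 gained one and 4 reversed. Of 342 recomputed counts 329 stayed within 1.5 times the reported count. The interaction called 2 members higher (1 reported) with median-of-ratios size factors, no filter on low counts, the replicate block, no mitochondrial genome genes and DESeq2, since Nr1d2 then passed (adjusted p 0.041, 0.00582, 0.0345, 0.0487 and 0.0382); with 1 library left out it called 1 to 3. Library size alone called 1 member lower (4 reported) and 8186 genes (4925 reported) in PRODH TAC against PRODH sham. It moved the median of all genes there to 0.40 (0.02 reported) and in vector TAC against vector sham to 0.37 (0.02), and the share of higher calls to 96.2% (49.2%) and 86.2% (53.6%). It reversed Clock in vector TAC against vector sham (0.21) and Per3 (0.20) and Cry2 (0.11) in PRODH TAC against PRODH sham. Per1 in PRODH sham against vector sham reversed to -0.04 without PRODH sham library 1. The cause of these shifts was not tested. Values of PRODH sham against vector sham rest on as few as 12 counts for Arntl and 4 for Npas2 in a library.

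Fitted with the replicate number as a block, the comparisons called 7 and 2 members higher and lower in vector TAC against vector sham, 2 and 6 in PRODH TAC against vector TAC, 4 and 4 in PRODH TAC against PRODH sham, 5 and 3 in PRODH sham against vector sham and 2 and 6 in the interaction. Whether a shared number marks shared animals or days is not stated. Over 24 same-numbered pairs the correlation of deviations from the group means ran from -0.129 to 0.168. It exceeded 0.1 in 3, all between libraries numbered 1 (0.132, 0.168 and 0.161). In all, 3 libraries correlated best with their own number in all other groups. Pairing or a batch shared by number was not tested.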
